A study of Homo sapiens with 6 samples.

Results

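The kinesin motor family was followed in the fibroblast line MRC5 after exposure to conditioned media (CM) of alveolar epithelial type II (ATII) cells. Members were all protein-coding genes of the count table whose symbol has the form of a kinesin heavy chain (KIF and a number, or KIFC and a number) and that had at least 10 counts summed over the 6 libraries. The table holds 42 such genes. Of these, 36 passed the count minimum, among 19072 genes tested of 58676 listed. By their known cellular role, the 36 members were sorted into 12 mitotic kinesins, 14 transport kinesins and 10 other kinesins.

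MRC5 is an established line of human lung fibroblasts, and it was grown in DMEM with serum for all 6 libraries. The cells were kept for 24 h in CM from ATII ER:KRASV12 cells, a human ATII line in which 4-hydroxytamoxifen (4-OHT) activates RAS through an ER:KRASV12 fusion. Control ATII ER:KRASV12 cells gave the CM of 3 libraries (control ATII CM), and the same cells given 4-OHT gave the CM of the remaining 3 (4-OHT ATII CM). The comparison addresses how lung fibroblasts respond to CM of RAS-activated epithelial cells when no TGF-β is added. Removal of 4-OHT before the CM was collected is not described in the sources used here, and no library holds fibroblasts given 4-OHT alone. Effects of carried-over 4-OHT and of factors from RAS-activated cells therefore cannot be told apart. Both groups received CM of the same engineered line, so no library shows fibroblasts without epithelial CM, and a single fibroblast line and a single epithelial line stand for their cell types. Nothing states that the 3 libraries of a group came from separate cultures, so p values measure only the spread between these samples, which may be technical.

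Kinesins are ATP-driven motors that walk along microtubules or take them apart at their ends. In a dividing cell, mitotic kinesins push the spindle poles apart, move chromosomes and organize the central spindle before the cell is cut apart, and most of their genes are expressed mainly in G2 and M phase. Transport kinesins work throughout the cell cycle and carry mitochondria, lysosomes, secretory vesicles and ciliary proteins, in most cases toward the microtubule plus end.

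Promoters of mitotic and transport members are shown first, because many genes of G2 and M phase share a pair of short elements near the start site. The cell cycle genes homology region (CHR), spelled TTTGAA, is a known site of the DREAM and MuvB complexes. It has a rarer and palindromic form that is spelled TTCGAA. The Y box, which NF-Y is known to bind, has the letters CCAAT. The windows come from RefSeq on GRCh38.p14, run 5′ to 3′ from 150 bases before to 30 bases after the RefSeq start site, and belong to the member with the smallest p of each mitotic role and to the most abundant transport member. Capitals mark each match to these 3 motifs on either strand, where a CHR on the other strand reads TTCAAA. A Y box on the other strand of the window reads ATTGG. The KIF20A window is chr5:138178962-138179141 (+ strand), the KIF11 window chr10:92592980-92593159 (+ strand) and the KIF18B window chr17:44947744-44947923 (- strand). The KIF4A window is chrX:70289954-70290133 (+ strand) and the KIF5B window chr10:32056396-32056575 (- strand).
KIF20A: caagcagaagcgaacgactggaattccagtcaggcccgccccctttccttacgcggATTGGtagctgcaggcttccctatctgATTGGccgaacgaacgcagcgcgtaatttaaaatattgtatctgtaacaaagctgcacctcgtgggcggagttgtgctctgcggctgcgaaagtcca
KIF11: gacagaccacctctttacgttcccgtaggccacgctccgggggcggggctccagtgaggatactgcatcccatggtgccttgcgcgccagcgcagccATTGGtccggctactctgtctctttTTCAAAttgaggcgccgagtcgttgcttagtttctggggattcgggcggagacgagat
KIF18B: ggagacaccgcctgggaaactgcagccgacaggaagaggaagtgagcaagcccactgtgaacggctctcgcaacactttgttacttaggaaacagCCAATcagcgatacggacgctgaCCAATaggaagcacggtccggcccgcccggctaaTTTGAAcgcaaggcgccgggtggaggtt
KIF4A: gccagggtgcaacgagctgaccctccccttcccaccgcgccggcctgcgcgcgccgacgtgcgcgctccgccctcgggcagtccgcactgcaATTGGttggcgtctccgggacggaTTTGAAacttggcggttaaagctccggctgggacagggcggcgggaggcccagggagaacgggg
KIF5B: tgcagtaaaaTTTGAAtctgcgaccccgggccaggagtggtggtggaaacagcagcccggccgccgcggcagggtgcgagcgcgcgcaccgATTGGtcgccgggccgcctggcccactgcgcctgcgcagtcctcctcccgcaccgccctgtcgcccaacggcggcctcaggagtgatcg
KIF11 holds a CHR 28 bases and a Y box 53 bases before its start site, and KIF4A has them in the same order at 34 and 58 bases. KIF18B holds Y boxes 55 and 32 bases before its start site and a CHR 2 bases after it. KIF20A holds a pair of Y boxes and no CHR of either form. In KIF5B the CHR lies 140 bases before the start site, upstream of a Y box at 59 bases.

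Motifs were counted in the whole RefSeq promoters, 250 bases before to 50 bases after each start site. A promoter was found for 12 of the 12 mitotic, 10 of the 14 transport and 7 of the 10 other kinesins. Either form of the CHR was present in 10 of 12 mitotic kinesins (83.3%), in 1 of 10 transport kinesins (10.0%) and in 1 of 7 other kinesins (14.3%). Of all 27305 genes with a promoter in the table, 19.5% held one. The Y box was present in 10 of 12 mitotic kinesins (83.3%), 4 of 10 transport kinesins (40%) and 2 of 7 other kinesins (28.6%), against 39.7% of all genes. Both elements were found in 9 of 12 mitotic kinesins (75%), in KIF5B alone among 10 transport kinesins (10.0%), in KIF24 alone among 7 other kinesins (14.3%) and in 9.02% of all genes. In all 10 of these mitotic members a CHR lay within 75 bases before to 50 bases after the start site, a range chosen after the positions were seen, where 7.54% of all genes held one. KIF15 held a CHR without a Y box, KIF22 held the TTCGAA form, and KIF2C held none of the 3 motifs. KIF24, a centriolar kinesin of the other class, also held the TTCGAA form, at its RefSeq start site. Its window covers chromosome 9 from base 34329219 on, outside the counted gene (34252381 to 34311371, - strand). RefSeq start sites are not always the first base of the gene in the count table. These matches describe letters in the windows and were not tested as binding sites.

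**Figure D1:**
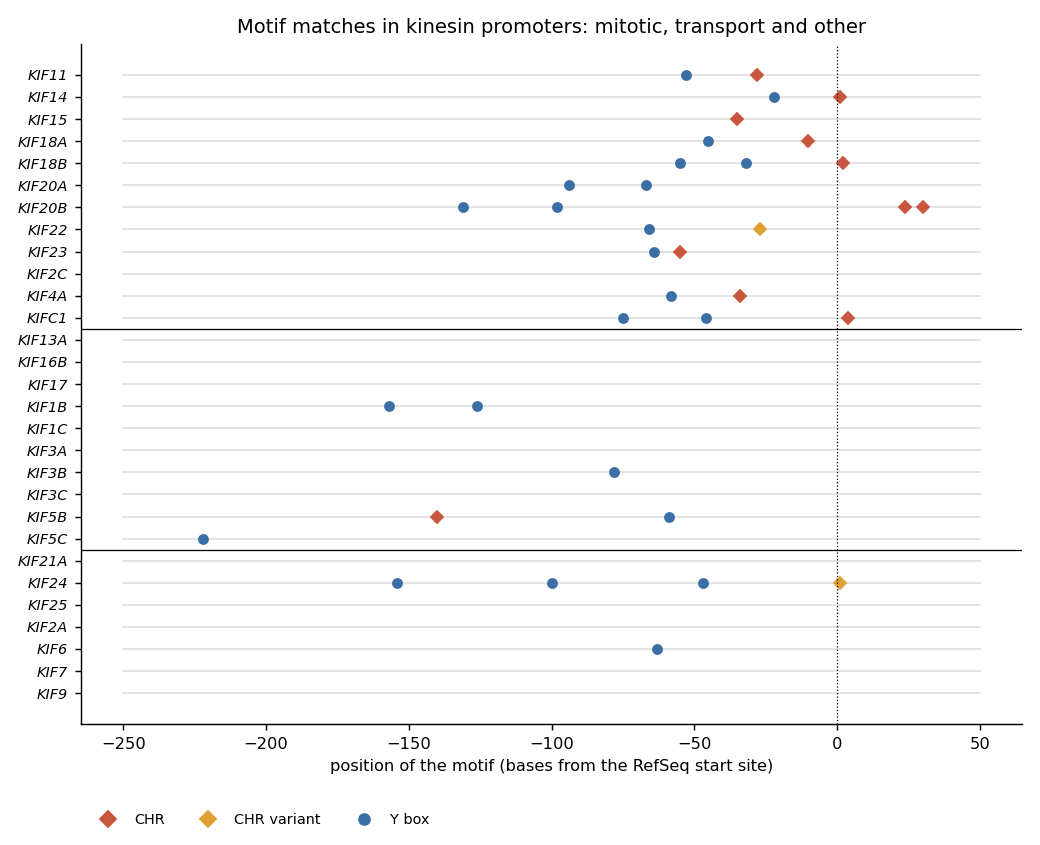
Motif matches in the promoters of 12 mitotic, 10 transport and 7 other kinesin genes, with the distance from the RefSeq start site in bases on the x axis and 1 gene a row in this order from top to bottom. Diamonds are the CHR (red) and its rarer form (orange), circles are Y boxes, and a gray line is the window searched. The CHR matches of mitotic kinesins lie close to the start site, whereas the match of KIF5B lies 140 bases before it.

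RNA-Seq libraries held 17691849 to 26389449 counts on genes. Levels are in CPM, the counts of a gene relative to the TMM-scaled total of its library, and a differentially expressed gene (DEG) is one whose adjusted p in edgeR's quasi-likelihood test was below 0.05. A negative log2 fold change means a lower level in 4-OHT ATII CM. Of the 19072 genes tested, 5.72% were DEGs, 2.76% were downregulated DEGs, and their median log2 fold change was -0.0020. The groups were free of overlap in 22.1% of the genes, and in 10.4% every 4-OHT ATII CM library was below every control ATII CM library. The fibroblast label was checked with 10 marker genes, all of which were tested, and their summed level was 41536 to 45243 CPM in control ATII CM and 43449 to 45216 CPM in 4-OHT ATII CM. Of these markers, 4 were upregulated and 1 was a downregulated DEG. Of 10 epithelial markers, 4 passed the count minimum (KRT19, EPCAM, CLDN4 and CLDN7), and KRT5, NKX2-1 and ESRP1 were at 0 in all libraries. KRT19 was detected in every library, at 5.61 to 8.90 CPM. The summed level of the 10 epithelial markers was 8.86 to 10.8 CPM in control ATII CM and 7.70 to 8.91 CPM in 4-OHT ATII CM. The shallowest library, control ATII CM replicate 2, stood apart from the others on the first principal component (24.5% of the variance).

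Most mitotic kinesins fell in 4-OHT ATII CM. Of the 12 members tested, 10 (83.3%) were downregulated DEGs and 0 were upregulated, against 2.76% downregulated DEGs among all genes. Their median log2 fold change was -0.48, and DESeq2 and limma-voom each also called 10. In 11 of the 12, all 3 values of 4-OHT ATII CM were below all 3 of control ATII CM, against 10.4% of all genes. The 10 DEGs were 22.6% to 35.4% lower. The share of DEGs depends on the class membership, which was chosen with earlier results of these data known. With KIF2A, KIF24 and KIF25 also counted as mitotic, none of which was called, the median log2 fold change was -0.46. In bulk RNA, fewer cells in G2 and M phase and less kinesin mRNA per dividing cell cannot be told apart. The proliferation genes moved with the mitotic kinesins, as MKI67 was at 41.5 ± 4.60 CPM (SD, n = 3) in control and 24.2 ± 0.896 CPM in 4-OHT ATII CM (log2 fold change -0.78) and TOP2A, a topoisomerase of dividing cells, had a log2 fold change of -0.56 (adjusted p = 1.01e-05 and 8.81e-06). Their part in the result was not tested. The strand setting of the counting is not given in the sources used here, and exons on the opposite strand overlap the exon length of some members, such as KIF20A (3.34% with BRD8 and 1.72% with CDC23), KIF23 (3.51% with its antisense RNA), KIF4A (1.70% with PDZD11) and KIF18A (1.31% with METTL15).

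**Figure D2:**
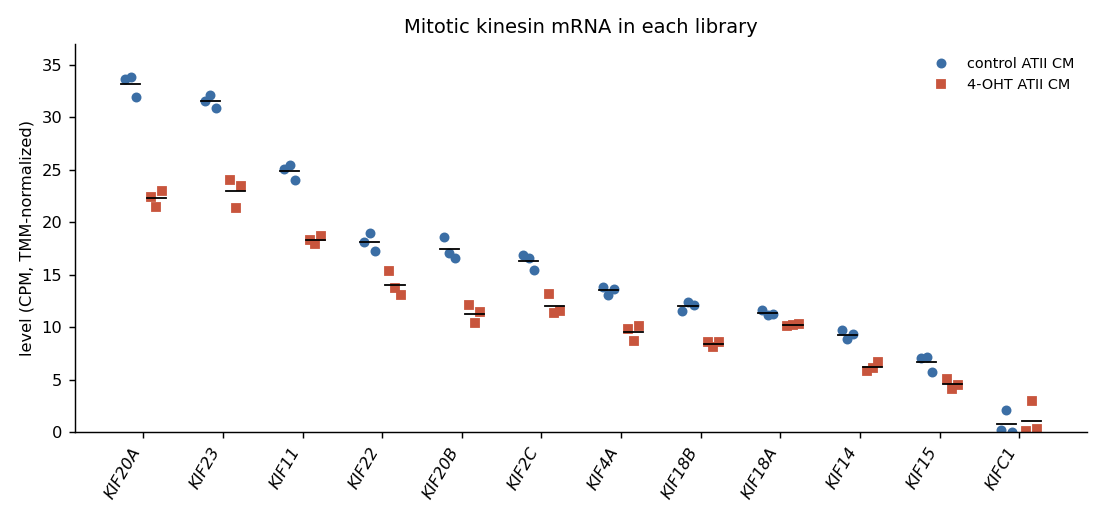
Levels of the 12 mitotic kinesins in CPM (y axis) for each of the 3 libraries in control ATII CM (blue circles) and the 3 in 4-OHT ATII CM (red squares), with black bars at the group means. The groups are apart in every gene but KIFC1, and the gap is narrow in KIF18A (11.2 CPM for the lowest control library, 10.3 CPM for the highest in 4-OHT ATII CM).

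Kinesins of the central spindle and cytokinesis fell in 4 of 4 members. KIF20A (MKLP2, ENSG00000112984, chromosome 5, 138178719 to 138187715), which brings the chromosomal passenger complex to the central spindle, had 33.6, 33.9 and 31.9 CPM in control ATII CM and 22.4, 21.5 and 23.0 CPM in 4-OHT ATII CM. The groups were far apart compared with their spread, with a log2 fold change of -0.57 and the smallest p of the family (standard error 0.0553, adjusted p = 2.2e-05). KIF23 (MKLP1, ENSG00000137807, chromosome 15, 69414246 to 69448427), the motor of the centralspindlin complex, had 31.5, 32.1 and 30.9 CPM against 24.1, 21.4 and 23.5 CPM. Its log2 fold change was -0.46 (adjusted p = 0.000216). KIF20B (MPP1, ENSG00000138182, chromosome 10, 89701610 to 89774939), a plus-end motor needed to complete cytokinesis, had 18.6, 17.1 and 16.6 CPM against 12.1, 10.3 and 11.4 CPM. It had the lowest log2 fold change of the mitotic class, -0.63 (adjusted p = 0.000232). KIF14 (ENSG00000118193, chromosome 1, 200551497 to 200620734), which binds citron kinase at the midbody, had 9.70, 8.85 and 9.31 CPM against 5.80, 6.06 and 6.70 CPM and a log2 fold change of -0.58 (adjusted p = 0.00219).

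Of the 3 spindle pole separation kinesins, 2 were downregulated DEGs. KIF11 (Eg5, ENSG00000138160, chromosome 10, 92593286 to 92655395), the tetrameric motor that slides antiparallel microtubules apart, had 25.1, 25.4 and 24.0 CPM in control ATII CM and 18.3, 17.9 and 18.6 CPM in 4-OHT ATII CM. No value of one group came near the other, and KIF11 differed by -0.44 on the log2 scale (standard error 0.0604, adjusted p = 0.000364). KIF15 (ENSG00000163808, chromosome 3, 44761717 to 44873376), which can take over from KIF11 in holding a spindle bipolar, had 7.07, 7.11 and 5.74 CPM against 5.07, 4.09 and 4.45 CPM. Its log2 fold change of -0.55 had the largest error among the 10 kinesin DEGs (standard error 0.13, adjusted p = 0.0193). The call of KIF15 was lost without control ATII CM replicate 1 (adjusted p = 0.0861), without 4-OHT ATII CM replicate 2 (adjusted p = 0.0984) and without 4-OHT ATII CM replicate 3 (adjusted p = 0.0731).

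KIFC1 (HSET, ENSG00000237649, chromosome 6, 33391536 to 33409924), a minus-end motor that pulls spindle poles inward, was the one mitotic member with no usable measurement. It had 3, 38 and 1 counts in control ATII CM and 1, 74 and 7 counts in 4-OHT ATII CM, so that libraries of one group differed far more than the groups (log2 fold change 0.65, standard error 0.977, adjusted p = 0.806). KIFC1 lies beside the major histocompatibility complex, and its transcripts also align to 2 alternate contigs of GRCh38. Among neighbors chosen after their values were seen, counts over the 6 libraries ran from 7 to 114 for PHF1 and from 24 to 281 for CUTA, and were near 0 for TAPBP (0 to 2). DAXX, with 15 to 18, and BAK1 farther along, with 527 to 802, varied less. The counting of multi-mapping reads is not given in the sources used here, and its part in these counts was not tested.

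Of the 3 kinesins that act at kinetochores and shorten microtubules, 2 were downregulated DEGs. KIF2C (MCAK, ENSG00000142945, chromosome 1, 44739818 to 44767767), a kinesin-13 that depolymerizes microtubules at centromeres, had 16.9, 16.6 and 15.5 CPM in control ATII CM and 13.2, 11.3 and 11.5 CPM in 4-OHT ATII CM. It changed by -0.45 on the log2 scale (adjusted p = 0.0033), with no overlap of the groups. KIF18B (ENSG00000186185, chromosome 17, 44924709 to 44947711), a kinesin-8 that shortens astral microtubules, had 11.6, 12.4 and 12.1 CPM against 8.59, 8.14 and 8.56 CPM and a log2 fold change of -0.51 (adjusted p = 0.00151). KIF18A, the kinesin-8 that aligns chromosomes at the metaphase plate, was singled out after its values were seen. It had 11.6, 11.2 and 11.3 CPM against 10.1, 10.2 and 10.3 CPM, a log2 fold change of -0.16 that did not pass the test (adjusted p = 0.339, 95% interval -0.32 to 0.01), although the groups did not overlap. The log2 ratio of KIF18B to KIF18A within each library was 0.081 ± 0.0776 (SD, n = 3) with control ATII CM against -0.28 ± 0.0454 with 4-OHT ATII CM. The difference of -0.36 is a description with no test, since KIF18A was chosen for its value.

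Chromokinesins, which bind chromosome arms, fell in 2 of 2 members tested. KIF4A (ENSG00000090889, chromosome X, 70290090 to 70420832), which also sets the length of the central spindle with PRC1, had 13.9, 13.0 and 13.6 CPM in control ATII CM and 9.87, 8.70 and 10.1 CPM in 4-OHT ATII CM (log2 fold change -0.50, adjusted p = 0.00207). Its near-identical copy KIF4B had 8 counts in all and fell below the count minimum. KIF22 (Kid, ENSG00000079616, chromosome 16, 29790719 to 29805385), which produces the polar ejection force, had 18.1, 19.0 and 17.3 CPM against 15.3, 13.7 and 13.0 CPM. It had the weakest change among the 10 kinesin DEGs, -0.37 (adjusted p = 0.00933), and its call was lost without 4-OHT ATII CM replicate 2 (adjusted p = 0.0573) or replicate 3 (adjusted p = 0.0600). KIF2B, a further kinesin-13, had 0 counts in all libraries.

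No transport kinesin passed the test. Of the 14 members tested with edgeR, 0 were DEGs, against 5.72% of all genes, and 5 had an unadjusted p below 0.05, against 3306 of the 19072 genes (17.3%). DESeq2 and limma-voom also called 0. Their median log2 fold change was -0.034, beside -0.0020 for all genes. For the 12 members with at least 5 CPM in control ATII CM, the change ranged from 21.6% lower to 14% higher, and their 95% intervals together spanned -33.0% to 27.8%. All 3 values of 4-OHT ATII CM were below all 3 of control ATII CM in 3 of the 14 members (KIF17, KIF13A and KIFC3), against 10.4% of all genes, and 0 had all values above. KIF1A, a neuronal kinesin-3, had 1 count and was not tested.

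KIF5B (ENSG00000170759, chromosome 10, 32009010 to 32056431), the ubiquitous heavy chain of conventional kinesin (kinesin-1), was the most abundant transport member at 52.5 CPM per kb of exon, which is 38.6% of the summed level of the class. It had 315, 300.3 and 315 CPM in control ATII CM and 311, 304 and 307 CPM in 4-OHT ATII CM, groups that overlap, with a log2 fold change of -0.012 (95% interval -0.082 to 0.057). The lower end of this interval lies above the fitted log2 fold changes of the 10 mitotic DEGs and of KIF18A (-0.16). It lies below that of KIFC1 (0.65). The DEGs were picked by their test, so this is a description and not a test of the classes. KIF5A and KIF5C, the neuronal heavy chains, stood at 0.116 and 0.0097 CPM per kb. KIF5C, with 12 counts, and KIF25 of the other class, with 11, were the members just above the count minimum, and KIF4B with 8 and KIF12 with 4 the genes just below it.

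KIF1C (ENSG00000129250, chromosome 17, 4997948 to 5028401), a fast kinesin-3 that carries dense vesicles and integrins, followed at 32.5 CPM per kb. It had 277, 290.0 and 275 CPM in control ATII CM and 291, 272 and 269.98 CPM in 4-OHT ATII CM, overlapping groups with a log2 fold change of -0.017 (adjusted p = 0.876). KIF5B and KIF1C together made up 62.5% of the summed transport level. KIF3B (ENSG00000101350, chromosome 20, 32277664 to 32335011), a subunit of the heterotrimeric kinesin-2 of intraflagellar transport, stood at 11.8 CPM per kb with 74.6, 71.7 and 71.3 CPM against 70.2, 73.2 and 71.8 CPM (log2 fold change -0.016, adjusted p = 0.896). KIF3A, its partner subunit, and KIF3C, which pairs with KIF3A in place of KIF3B, were at 3.51 and 7.004 CPM per kb. KIFC3 (ENSG00000140859, chromosome 16, 57758217 to 57863053), a minus-end kinesin-14 of Golgi and junctional transport, had 68.5, 75.2 and 70.2 CPM against 66.0, 65.2 and 64.6 CPM. Its groups did not overlap, but the log2 fold change of -0.13 did not pass the test (adjusted p = 0.101).

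**Figure D3:**
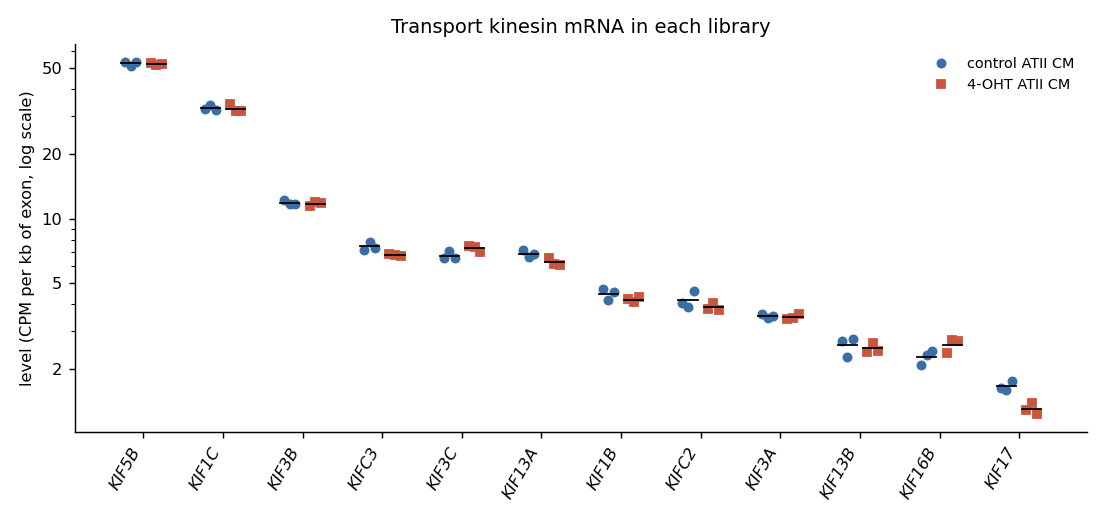
Levels of the 12 transport kinesins with at least 5 CPM in control ATII CM, in CPM per kb of exon on a log y axis, for each library in control ATII CM (blue circles) and in 4-OHT ATII CM (red squares), with black bars at the group means. The levels run from 52.5 CPM per kb for KIF5B to 1.49 CPM per kb for KIF17, and the groups overlap in all but KIFC3, KIF13A and KIF17.

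Transport members whose calls depended on the processing were named after their values were seen. KIF17, the homodimeric kinesin-2, had 7.31, 7.17 and 7.85 CPM in control ATII CM and 5.76, 6.26 and 5.52 CPM in 4-OHT ATII CM. The log2 fold change of -0.35 missed the threshold (adjusted p = 0.0686) and passed it with the filterByExpr filter (adjusted p = 0.0492). Without control ATII CM replicate 2, KIF13A (log2 fold change -0.16, adjusted p = 0.0233) and KIF1B (log2 fold change -0.14, adjusted p = 0.0251) were DEGs. With all libraries, KIF13A, a kinesin-3 of endosomes, had 79.3, 74.0 and 76.2 CPM against 73.3, 68.5 and 67.8 CPM (log2 fold change -0.13, adjusted p = 0.0894). KIF1B, a kinesin-3 of mitochondria and vesicles, had an adjusted p of 0.294.

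Other kinesins, which act in cilia and centrioles or regulate microtubule ends, gave 0 DEGs among 10 members tested with edgeR, against 5.72% of all genes, and 0 by DESeq2 or limma-voom. An unadjusted p below 0.05 was found for 2 of them, against 17.3% of all genes. Their median log2 fold change was -0.20, and 8 of the 10 fold changes were negative. All 3 values of 4-OHT ATII CM were below all 3 of control ATII CM in 3 of the 10 members (KIF24, KIF6 and KIF7), against 10.4% of all genes, and 0 had all values above. KIF2A, a kinesin-13 like KIF2C that acts at spindle poles but also trims microtubules in cells that do not divide, had 40.7, 39.9 and 43.7 CPM in control ATII CM and 40.2, 35.2 and 37.5 CPM in 4-OHT ATII CM. With overlapping groups, KIF2A had a log2 fold change of -0.14 (adjusted p = 0.175). On the strand of KIF2A, exons of IPO11 overlap 8.97% of its exon length, and their shared reads cannot be told apart. The log2 ratio of KIF2C to KIF2A was -1.34 ± 0.132 (SD, n = 3) with control and -1.65 ± 0.0491 in 4-OHT ATII CM, a difference of -0.31. An exact permutation test over the libraries (two-sided) gave p = 0.1 (adjusted 0.15 over 3 pairs), the smallest p that 3 libraries against 3 allow, so that the 0.05 threshold was out of reach. KIF26B, a kinesin of Wnt5a signaling without motor activity, had 0.274 to 0.703 CPM over the 6 libraries and a log2 fold change of -0.25 with a standard error of 0.409. Transcripts of KIF26B, like those of KIF5C, also align to 1 alternate contig. KIF24, which was named after its values were seen, had 2.39, 2.63 and 2.07 CPM against 1.69, 1.36 and 1.45 CPM. Its groups did not overlap, and its log2 fold change of -0.65 had an adjusted p of 0.0623. Exons of UBAP1 (8245 counts in all) on the opposite strand overlap 2.33% of the exon length of KIF24 (254 counts in all). The part of this overlap in the KIF24 counts was not tested.

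**Figure D4:**
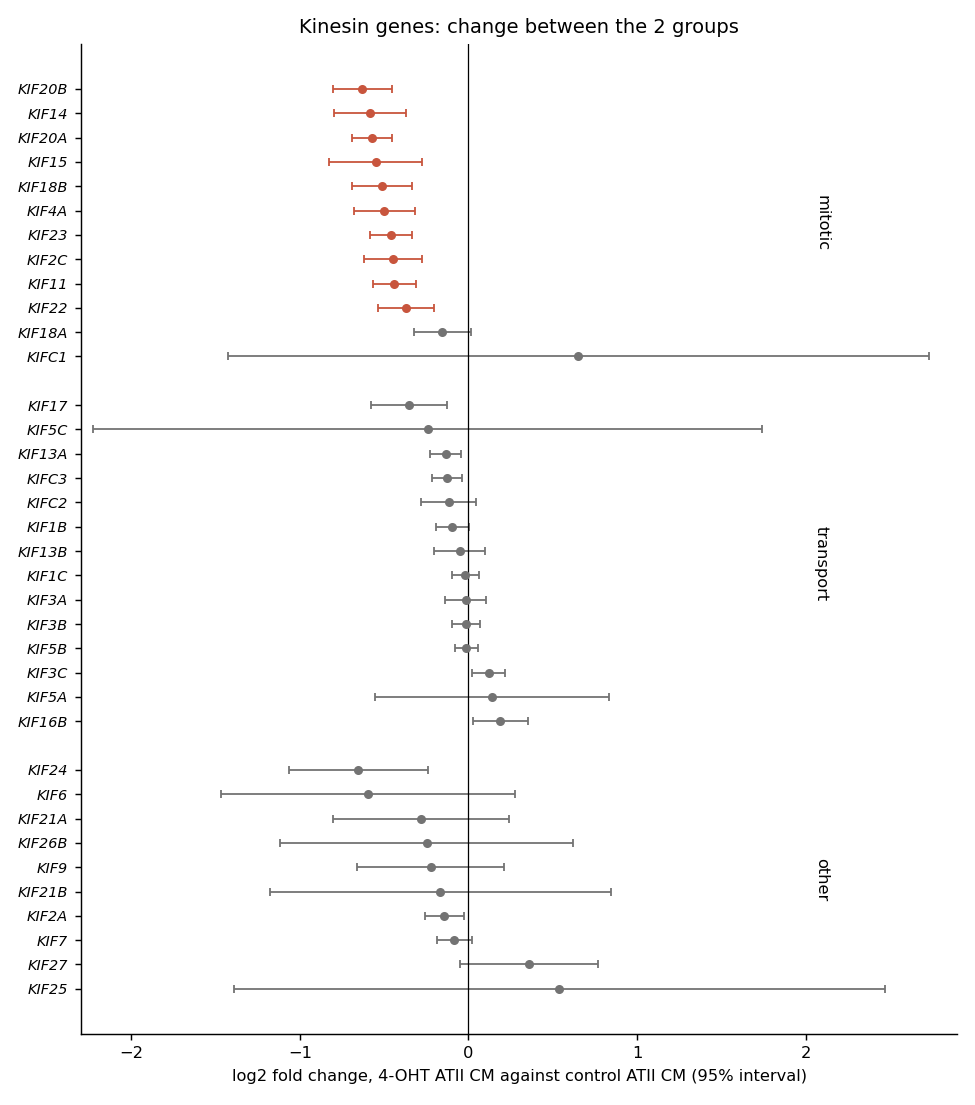
Log2 fold changes of the 36 kinesin genes, 4-OHT ATII CM against control ATII CM (x axis), with 95% intervals from edgeR, grouped into mitotic, transport and other kinesins. Red points are the 10 DEGs, all of them mitotic and between -0.63 and -0.37, and gray points are members that were not called.

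Over the whole family, 10 of 36 members (27.8%) were DEGs, against 5.72% of all genes. Mitotic and transport kinesins were then compared by their summed levels, whose ratios and shares within a library need no scaling between libraries. Summed over members, mitotic kinesins stood at 40.7, 41.3 and 38.8 CPM per kb in control ATII CM and at 29.98, 28.5 and 29.2 CPM per kb in 4-OHT ATII CM. Transport kinesins stood at 138, 136 and 138 CPM per kb against 137, 134 and 133 CPM per kb. The mean of the mitotic sum differed by -27.4% between the groups, and that of the transport sum by -1.72%. As a share of the whole family, mitotic kinesins took 20.8%, 21.2% and 20.02% in control ATII CM against 16.3%, 16.0% and 16.4% in 4-OHT ATII CM, without overlap. The log2 ratio of the mitotic to the transport sum was -1.77 ± 0.0548 (SD, n = 3) with control and -2.21 ± 0.0258 in 4-OHT ATII CM, a difference of -0.44. Among single members, the log2 ratio of KIF11 to KIF5B differed by -0.43 (exact permutation p of 0.1, adjusted 0.15). The log2 ratio of KIF20A to KIF20B, which both fell, differed by 0.056 (exact permutation p of 0.4, adjusted 0.4), less than 1 SD of either group.

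**Figure D5:**
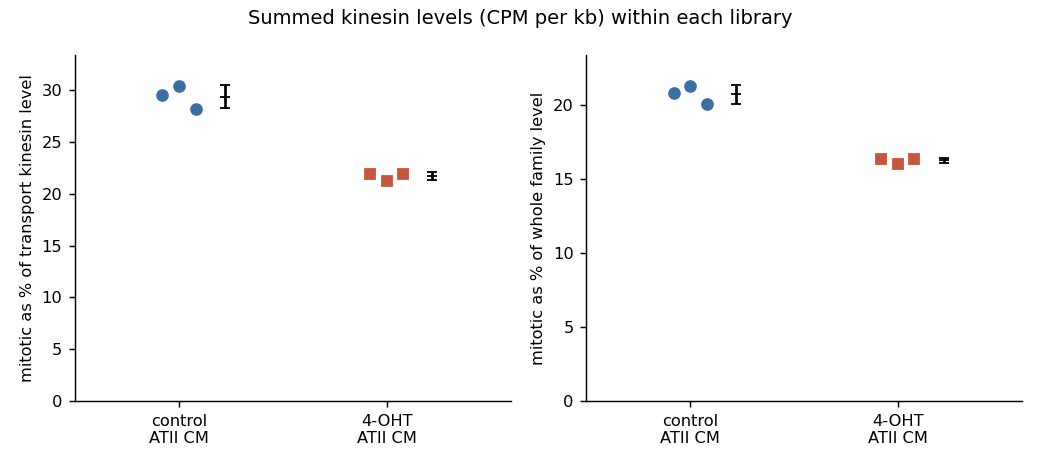
Summed level of the 12 mitotic kinesins in each library as a percent of the summed transport level (left) and of the whole family (right), both from CPM per kb, for control ATII CM (blue circles) and 4-OHT ATII CM (red squares), with the mean and SD beside them (n = 3). The share of the family lies between 20.02% and 21.2% in control ATII CM and between 16.0% and 16.4% in 4-OHT ATII CM.

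Proteins that work with the motors were followed in 3 lists. Among the 19 mitotic partners, which regulate or anchor mitotic kinesins, 16 were downregulated DEGs (84.2%) and 0 upregulated, against 2.76% downregulated DEGs among all genes, with a median log2 fold change of -0.51. TPX2, the spindle assembly factor that targets KIF11 and KIF15 to the spindle, had 54.3, 57.3 and 51.4 CPM in control ATII CM and 41.2, 36.9 and 36.3 CPM in 4-OHT ATII CM (log2 fold change -0.51, adjusted p = 4.6e-05). RACGAP1, which forms centralspindlin with KIF23, fell by 0.54 on the log2 scale, from 32.0 ± 0.785 to 22.0 ± 1.57 CPM (adjusted p = 6.76e-05). BIRC5 (survivin), a member of the complex carried by KIF20A, fell by 0.56 on the log2 scale. CENPE, the kinesin-7 of kinetochores whose symbol keeps it outside the family rule, had 16.7, 17.6 and 16.9 CPM against 13.1, 12.1 and 12.6 CPM (log2 fold change -0.44, adjusted p = 0.00146). The 3 partners that were not called were MAPRE1, PSRC1 and PRC1. PRC1, the antiparallel microtubule bundler that recruits KIF4A, had 5 to 17 counts a library, and its transcripts are near-identical to those of the identifier ENSG00000284946, so that its level is uncertain.

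Cargo adaptors and regulators of transport kinesins gave 1 upregulated DEG of 19 tested (5.26%), near the 5.72% of all genes, and a median log2 fold change of 0.024. The DEG was FEZ1, a kinesin-1 cargo adaptor, with 49.2, 50.3 and 48.8 CPM in control ATII CM and 56.3, 56.5 and 55.6 CPM in 4-OHT ATII CM (log2 fold change 0.18, adjusted p = 0.00944). Its call was lost without replicate 3 of control ATII CM and without replicate 2 or 3 of 4-OHT ATII CM, with an adjusted p of up to 0.0667. KLC1, the main kinesin-1 light chain, had 59.7, 59.2 and 60.3 CPM against 59.5, 53.5 and 61.9 CPM, a log2 fold change of -0.035 (adjusted p = 0.788). KLC1 transcripts are near-identical to those of the identifier ENSG00000256500, so that its level is uncertain too. KIFAP3, the third subunit of heterotrimeric kinesin-2, had a log2 fold change of 0.13 (adjusted p = 0.313). TRAK2, the mitochondrial adaptor, and MAPK8IP3 (JIP3) had log2 fold changes of 0.11 and -0.12 that did not pass the test (adjusted p = 0.117 and 0.141). Without control ATII CM replicate 2, MAPK8IP3 was a DEG (adjusted p = 0.0466).

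Dynein and dynactin, the minus-end machinery that opposes transport kinesins, gave 2 downregulated and 0 upregulated DEGs of 26 tested (7.69%). Among all genes, 5.72% were DEGs in either direction and 2.76% were downregulated DEGs. The median log2 fold change of the list was -0.0088. DYNC1H1, the dynein heavy chain, had 315, 202 and 289 CPM in control ATII CM and 189, 207 and 207 CPM in 4-OHT ATII CM. Control ATII CM replicate 2 lay within the range of the other group, and the log2 fold change of -0.42 (adjusted p = 0.0256) had adjusted p values up to 0.171 under 13 alternatives, 7 of which called it. BICD1, a dynein cargo adaptor, had a log2 fold change of -0.21 (adjusted p = 0.0472) and was called under 5 of 13 alternatives. DYNLT1, a dynein light chain, had a log2 fold change of 0.11 (adjusted p = 0.206) and was a DEG without control ATII CM replicate 2 (adjusted p = 0.0122). DESeq2 called neither of the 2 DEGs.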

How the data were processed

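Gene counts of MRC5 cells in control ATII CM (3 libraries) and 4-OHT ATII CM (3 libraries) were analysed, with groups taken from the sample titles. Per the submitters' processing notes, reads were trimmed (Trim Galore), aligned by HISAT2 2.1.0 against GRCh38 and summarised per gene by featureCounts 1.6.5, and the authors deposited the raw counts. Annotation release, strand setting and the treatment of multi-mapping reads are not given in the sources used here. Lines of the 45 identifiers listed on both X and Y were added. GENCODE release 44 gave symbols and types.

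Genes with at least 10 counts over the 6 libraries were tested in R 4.3.3 with edgeR 4.0.16 (TMM normalization, quasi-likelihood test, group only, Benjamini-Hochberg adjustment over 19072 genes, threshold 0.05). DESeq2 1.42.0, the study's tool in another version, limma-voom 3.58.1, DESeq2 size factors, other count filters, a replicate block, removal of a gene length trend, other class membership and leaving out each library were alternatives. edgeR was tested on simulated data for this comparison with 18693 genes and called 182 of 200 changed genes and 15 unchanged ones. Changes were planted only in well-counted genes and were larger than several fold changes reported here. The simulation therefore does not measure how often smaller changes, or changes in genes with few counts, are called. Totals of 17691849 to 26389449 counts per library leave little counting error at 5 CPM and above and much below it. Replicate pairs differed beyond counting noise (chi-square per degree of freedom 2.12 to 6.03), so none was counted as a copy. CPM per kb divides by the deposited exon length. Copies were sought with minimap2 2.31 (at least 90% of a transcript at 98% identity on an alternate contig, or 50% at 95% identity with another gene). Promoters came from RefSeq.

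Named genes follow a rule: every kinesin DEG, the most abundant member of each transport subfamily, KIF2A, KIFC3, KIF26B, the genes on both sides of the count minimum, MKI67, TOP2A, the 3 partners with the smallest p in each list, and CENPE, RACGAP1, PRC1, TPX2, KLC1, KIFAP3 and DYNC1H1. Other names were added after their values were seen. Members and lists were chosen with earlier results of these data known.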

Additional observations from a re-analysis of the deposited data

How the results depend on the processing

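Mitotic kinesins gave 10 DEGs under each alternative fit to all 6 libraries and 8 to 10 when 1 library was left out. Other class membership was run for the median fold changes and the ratio of levels, not for the number of DEGs. Of 468 combinations of the 36 members and 13 alternatives, 449 gave an adjusted p, of which 441 kept their side of the threshold, 5 lost it and 3 gained it. The fold change turned its sign in 10 combinations of 8 members, none of them called, with KIFC1 at -2.07 without 4-OHT ATII CM replicate 2. The number of DEGs among all genes, 1090, was 533 without replicate 2 of 4-OHT ATII CM, 615 without its replicate 3 and 663 without replicate 3 of control ATII CM, and ranged from 533 to 1530 over the left-out libraries. Transport kinesins gave 1 DEG with filterByExpr, and 0 to 2 over the left-out libraries, with 2 without control ATII CM replicate 2. The log2 ratio of mitotic to transport levels, -0.44, was -0.35 as a mean of log2 levels and -0.38 with other class membership. Without KIFC1, an alternative chosen after seeing the data, the mean of log2 levels gave -0.43. The partner lists were also run under the alternatives after seeing the data. Mitotic partners gave 11 to 16 and cargo adaptors 0 to 2 DEGs over the left-out libraries. Dynein and dynactin gave 0 DEGs with DESeq2, 1 with a replicate block, 1 without the gene length trend and 0 to 3 over the left-out libraries. The cause was not tested.

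With the replicate number as a replicate block, 985 genes were DEGs, and no kinesin call changed. Same-numbered libraries correlated by 0.0346, -0.00423 and 0.00509 in their deviations from the group means over 12000 genes. Differently numbered libraries correlated by -0.0766 to 0.0739. No deviation shared by number was seen, but these values cannot show whether the libraries were handled as pairs. Depth limits KIF5A, KIF5C, KIF6, KIF21B, KIF25 and KIF26B, whose standard errors are 0.326 or more on the log2 scale.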
